A study of Rattus norvegicus with 12 samples.

Results

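The BMP pathway and Id genes described here are 10 genes of rat PAC1 cells, taken by name from the 33294 genes of the raw count table: the ligands Bmp2 and Bmp4, the secreted antagonist Grem1, the receptors Bmpr1a and Bmpr2, the inhibitory SMADs Smad6 and Smad7, and the target genes Id1, Id2 and Id3. PAC1 is a line of smooth muscle cells from rat pulmonary artery, grown in DMEM with 10% foetal bovine serum, that can be held in a more differentiated (PAC1-D) or a more proliferative (PAC1-P) state by how often and how thinly it is split. Poly(A) RNA was sequenced from 12 libraries in 4 groups of 3. D1 was PAC1-D, split 1:10 once a week, with control siRNA, and P was PAC1-P, split 1:20 at 2 splits a week, with control siRNA. RBPMS KD1 was PAC1-D with siRNA against RBPMS, and MBNL KD was PAC1-D with siRNAs against MBNL1 and MBNL2. All groups therefore carried siRNA and transfection reagent, given as 90 pmol per well and repeated after 24 h, with harvest 48 h after the second treatment per the labels. The study's methods give later times for transfections in PAC1 cells. All libraries came from this 1 line, and in P the splitting history and the state of the cells cannot be told apart.

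Bone morphogenetic proteins (BMPs) are secreted ligands of the TGF-beta family that bind pairs of type I and type II serine/threonine kinase receptors, which phosphorylate SMAD1, SMAD5 and SMAD9. These join SMAD4 in the nucleus and induce, among others, the Id genes, whose products lack a DNA-binding region and hold back basic helix-loop-helix (bHLH) transcription factors, and the genes of the inhibitory SMADs, which feed back on the receptors. Secreted antagonists such as gremlin 1 bind the ligands outside the cell. In pulmonary artery smooth muscle the pathway is known for its part in growth control, and mutations in BMPR2 are known in heritable pulmonary arterial hypertension.

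The siRNAs that define the groups are shown by their sense strands, 5′ to 3′ and in lower case throughout. The control was a scrambled sequence, C2.

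C2 control: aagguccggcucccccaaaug

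RBPMS: ggcggcaaagccgagaaggcgaaca

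MBNL1 (THH2): cacggaauguaaauuugcauu

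MBNL2: gaagaguaauugccugcuuuu

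Levels below are read counts scaled for library size and composition over all 12 libraries by TMM (trimmed mean of M-values), and a mean is given ± SD (n = 3). They are compared between groups for 1 gene at a time, since no gene lengths were used. Total counts lay between 80842635 and 90771289 per library. Rbpms was at 13346 ± 701 in D1, 3337 ± 60.3 in RBPMS KD1 and 11111 ± 233 in MBNL KD, and it was lowest in P, at 841 ± 8.86. Mbnl1 and Mbnl2 were at 30833 ± 459.8 and 16016 ± 174 in D1 and at 7307 ± 85.6 and 4732 ± 80.5 in MBNL KD, so that each targeted RNA was lower in the libraries labelled with its knockdown. In P, Mbnl1 was at 37106 ± 652 and Mbnl2 at 8348 ± 146. The summed level of 8 smooth muscle markers (Acta2, Tagln, Cnn1, Myh11, Mylk, Myl9, Smtn and Myocd) was 871742 to 916188 in D1, 18688 to 19856 in P, 434073 to 449797 in RBPMS KD1 and 694097 to 704524 in MBNL KD. Most of the sum in D1 was Acta2 (mean 447572) and Tagln (288424). In MBNL KD the markers moved both ways: Myh11 (from 4570 to 6603) and Cnn1 (from 1703 to 1840) were higher than in D1, and the others were lower. RNA came from bulk cells, so that a change in the number of cells of a kind and a change in RNA per cell cannot be told apart.

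In P compared with D1, the 3 Id genes, Grem1 and Bmpr1a were higher and passed both thresholds used here: an edgeR quasi-likelihood p, adjusted over all genes tested, of less than 0.05, and a log2 fold change of more than 1 in size. That is 5 of 10 members higher and 0 lower, against 27.6% of the 16814 genes tested that passed both thresholds, 16.4% higher and 11.2% lower. Under quantile normalization 45.2% of all the calls in P were higher, in place of 59.4%. By adjusted p alone 8 members rose, Bmp4 fell and Smad7 did not pass, where 40.4% of all genes tested rose and 37.6% fell. The P and D1 libraries did not overlap in 9 of 10 members, against 79.1% of all genes tested. The members' median log2 fold change was 1.03, and that of all genes tested was 0.020.

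In MBNL KD compared with D1, Bmp2, Grem1, Id1, Id2 and Id3 passed both thresholds, all higher, which is 5 of 10 members where 10.2% of 16053 genes passed, 6.1% higher and 4.14% lower. By adjusted p alone 9 members rose and Smad7 fell (the last not under quantile normalization), against 33.8% and 33.7% of all genes tested, the groups did not overlap in any of the 10 members, against 70.3% of all genes, and the median was 0.71 against 0.0099. In RBPMS KD1 compared with D1, 0 of the 9 members tested passed both thresholds by edgeR, and 0 by DESeq2 or limma, where 4.68% of 15904 genes did by edgeR, 3.06% higher and 1.62% lower. The same 9 members held 8 with an unadjusted p under 0.05, against 62.5% of all genes tested. By adjusted p alone 7 of these rose (Bmp2, Bmp4, Bmpr1a, Smad6, Smad7, Id1 and Id3), Id2 fell and Bmpr2 did not pass, against 29.5% of all genes tested higher and 29.5% lower, and the median was 0.25 against 0.0043. The groups did not overlap in 8 of the 9, against 63.4% of all genes. Grem1 was under the filter on low counts in this comparison. The 3 comparisons share the D1 libraries, so their values are given side by side and their likeness was not tested.

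**Figure D1:**
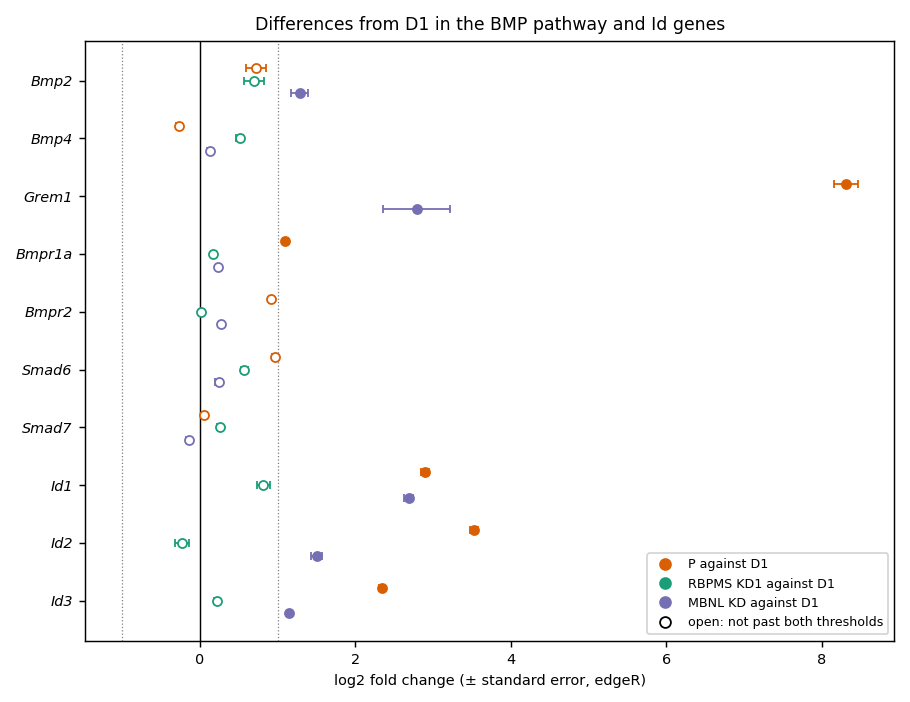
Differences of the 10 members from D1, as log2 fold change on the x axis with bars of 1 standard error from edgeR, for P, RBPMS KD1 and MBNL KD. Filled points passed both thresholds. In P and in MBNL KD the Id genes and Grem1 lie right of the dotted line at 1, and in RBPMS KD1 all tested members lie between -0.23 and 0.82.

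Of the ligands, Bmp2 rose in all 3 groups compared with D1 by edgeR, and Bmp4 fell in P and rose in both knockdowns. Bmp2, a ligand with a high affinity for type I BMP receptors, had scaled counts of 181, 149.7 and 179.6 in the D1 libraries, 299, 247 and 297 in P, 246, 279 and 303 in RBPMS KD1 and 446, 406 and 383 in MBNL KD. Every library of the other groups lay above every D1 library, P and RBPMS KD1 overlapped each other, and MBNL KD was the highest. Bmp2 was 2.43-fold higher in MBNL KD (log2 fold change 1.28, SE 0.111, adjusted p = 1.9e-11), 1.65-fold higher in P (log2 fold change 0.72, SE 0.125, adjusted p = 4.2e-06) and 1.62-fold higher in RBPMS KD1 (log2 fold change 0.70, SE 0.125, adjusted p = 2.1e-05), and only the first of these passed the fold threshold. The rise in P was smaller under quantile normalization (0.28, adjusted p = 0.039) and did not pass by limma on the authors' normalised values (0.24, adjusted p = 0.088).

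Bmp4, which signals through the same receptors, had scaled counts of 2541, 2711 and 2539 in D1, 2170.4, 2207 and 2084 in P, 3619, 3789 and 3665 in RBPMS KD1 and 2789, 2808 and 2904 in MBNL KD. The 4 groups did not overlap, and their order was P, D1, MBNL KD and RBPMS KD1 from low to high. Bmp4 was 1.21-fold lower in P (log2 fold change -0.27, SE 0.0426, adjusted p = 8.5e-07) and rose by 1.42-fold in RBPMS KD1 (log2 fold change 0.51, SE 0.0390, adjusted p = 4.3e-12) and by 1.10-fold in MBNL KD (log2 fold change 0.13, SE 0.0402, adjusted p = 0.0047). None of these differences reached the fold threshold.

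Grem1 had the widest range of the members, from a few reads per library in D1 to a level in P that was 316-fold higher. Gremlin 1 binds BMP2, BMP4 and BMP7 and keeps them from their receptors. The D1 libraries held 4, 6 and 6 Grem1 reads (4.09, 6.19 and 6.12 scaled counts), the RBPMS KD1 libraries 14, 8 and 24 (14.2, 8.10 and 24.1) and the MBNL KD libraries 30, 40 and 42 (29.8, 39.5 and 45.8). In P the scaled counts were 1969, 1567 and 1770.3. The groups did not overlap, and D1, RBPMS KD1 and MBNL KD all lay far under P. By log2 fold change Grem1 ranked 199 from the top among the 16814 genes tested in P (log2 fold change 8.31, SE 0.155, adjusted p = 6.3e-31). In MBNL KD it was 6.90-fold higher than in D1 (log2 fold change 2.79, SE 0.435, adjusted p = 1.7e-06). By limma on the normalised values, of which none is under 35, the log2 fold changes were 5.43 in P and 0.82 in MBNL KD. For RBPMS KD1, which the filter left out, a fit with no filter gave a log2 fold change of 1.48 with an adjusted p of 0.04992, at the threshold, and 1 fit of all 12 libraries gave 1.48 with an adjusted p of 0.0056. Without D1 replicate 1 the adjusted p was 0.08, and without RBPMS KD1 replicate 1 or replicate 3 Grem1 was again under the filter.

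The receptors both rose in P, and Bmpr2 did not pass in RBPMS KD1. Bmpr1a, a type I receptor also called ALK3, had scaled counts of 8446, 9146 and 9157 in D1, 18871, 19336 and 19143 in P, 9510.3, 10208 and 10330.5 in RBPMS KD1 and 10447, 10568 and 10197 in MBNL KD. P stood apart from the others, and RBPMS KD1 and MBNL KD overlapped each other a little above D1. It was 2.14-fold higher in P (log2 fold change 1.10, SE 0.0286, adjusted p = 1e-26), 1.12-fold higher in RBPMS KD1 (adjusted p = 7.1e-05) and 1.17-fold higher in MBNL KD (adjusted p = 2.1e-08). Bmpr2, the type II receptor that phosphorylates the type I receptor, had scaled counts of 13703, 14137 and 13541 in D1, 25784, 26211 and 26254 in P, 13840.3, 13833 and 14029.7 in RBPMS KD1 and 16211, 16579.6 and 16784 in MBNL KD. D1 and RBPMS KD1 overlapped, MBNL KD lay above both, and P was the highest. Bmpr2 was 1.89-fold higher in P (log2 fold change 0.92, SE 0.0251, adjusted p = 4.2e-26), just under the fold threshold, while under quantile normalization its log2 fold change of 1.04 passed. In MBNL KD it was 1.20-fold higher (log2 fold change 0.27, SE 0.0246, adjusted p = 7.1e-11). In RBPMS KD1 the log2 fold change was 0.013, with a 95% interval of -0.038 to 0.064 (adjusted p = 0.7), and under quantile normalization it was 0.073 (adjusted p = 0.017).

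Of the inhibitory SMADs, Smad6 rose in all 3 groups and Smad7 rose in RBPMS KD1 and, by edgeR with TMM, fell in MBNL KD. SMAD6 acts mainly on BMP signalling, by competing for SMAD1 and binding type I receptors, and SMAD7 acts on BMP and TGF-beta receptors alike. Smad6 had scaled counts of 1808, 1675 and 1879.9 in D1, 3435, 3480.4 and 3579 in P, 2468, 2807 and 2692 in RBPMS KD1 and 2185, 2123 and 1999 in MBNL KD. The 4 groups did not overlap, with D1 the lowest and P the highest. The folds over D1 were 1.96 in P (log2 fold change 0.97, SE 0.0427, adjusted p = 4e-20), 1.49 in RBPMS KD1 (log2 fold change 0.57, SE 0.0501, adjusted p = 6.9e-11) and 1.18 in MBNL KD (log2 fold change 0.24, SE 0.0492, adjusted p = 8.3e-05), all under the fold threshold.

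Smad7 had scaled counts of 5673, 5046 and 5372 in D1, 5569, 5465 and 5693 in P, 6659, 6243 and 6254 in RBPMS KD1 and 4911, 4811 and 4793 in MBNL KD. D1 and P overlapped, RBPMS KD1 lay above them and MBNL KD below. In P the log2 fold change was 0.055 with a 95% interval of -0.014 to 0.12 (adjusted p = 0.15), and without D1 replicate 1, the highest D1 library, it was 0.090 (adjusted p = 0.028). Smad7 was 1.19-fold higher in RBPMS KD1 (log2 fold change 0.25, SE 0.0368, adjusted p = 9.2e-07) and 1.10-fold lower in MBNL KD (log2 fold change -0.14, SE 0.0348, adjusted p = 0.00065). The difference in MBNL KD did not pass under quantile normalization (-0.066, adjusted p = 0.11) or by limma on the normalised values (-0.064, adjusted p = 0.23), and that in P passed under quantile normalization (0.090, adjusted p = 0.03).

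In P the Id genes showed the largest differences of the members after Grem1. All 3 were also more than 2-fold higher in MBNL KD than in D1, while in RBPMS KD1 Id1 and Id3 rose by less than 2-fold and Id2 was slightly lower than in D1. ID1 and ID3 are close relatives that bind E proteins such as TCF3, and ID2 is known in addition for binding the retinoblastoma protein. Id1 had scaled counts of 461, 443 and 426 in D1, 3341, 3358 and 3189.7 in P, 836, 805 and 697 in RBPMS KD1 and 2710.3, 2993 and 2801 in MBNL KD. No groups overlapped, and the MBNL KD libraries came close to those of P, a difference that was not tested. Id1 was 7.43-fold higher in P (log2 fold change 2.89, SE 0.0530, adjusted p = 4e-31), 6.43-fold higher in MBNL KD (log2 fold change 2.68, SE 0.0575, adjusted p = 5e-26) and 1.76-fold higher in RBPMS KD1 (log2 fold change 0.82, SE 0.0785, adjusted p = 4.8e-10).

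Id2 had scaled counts of 434, 453 and 460.3 in D1, 5350.3, 5093 and 5098 in P, 374, 367 and 405 in RBPMS KD1 and 1336, 1162 and 1308 in MBNL KD. The order was RBPMS KD1, D1, MBNL KD and P, with no overlap, and MBNL KD was well short of P. In P, Id2 was 11.5-fold higher (log2 fold change 3.53, SE 0.0474, adjusted p = 5.7e-35), and in MBNL KD it was 2.84-fold higher (log2 fold change 1.50, SE 0.0696, adjusted p = 8.1e-18). In RBPMS KD1 it was 1.17-fold lower (log2 fold change -0.23, SE 0.0855, adjusted p = 0.021), and this lost its adjusted p under 0.05 without D1 replicate 3 (0.063), without RBPMS KD1 replicate 1 (0.056) or without RBPMS KD1 replicate 2 (0.077). Id3 had scaled counts of 5479, 5374 and 5846 in D1, 28809, 27730.0 and 27806 in P, 6529.9, 6653 and 6157 in RBPMS KD1 and 11979, 12556 and 12235 in MBNL KD. Its groups did not overlap either, with D1 the lowest and P again the highest. Id3 was 5.05-fold higher in P (log2 fold change 2.34, SE 0.0295, adjusted p = 1e-35), 2.21-fold higher in MBNL KD (log2 fold change 1.15, SE 0.0289, adjusted p = 2.5e-24) and 1.16-fold higher in RBPMS KD1 (log2 fold change 0.21, SE 0.0350, adjusted p = 5.8e-06).

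**Figure D2:**
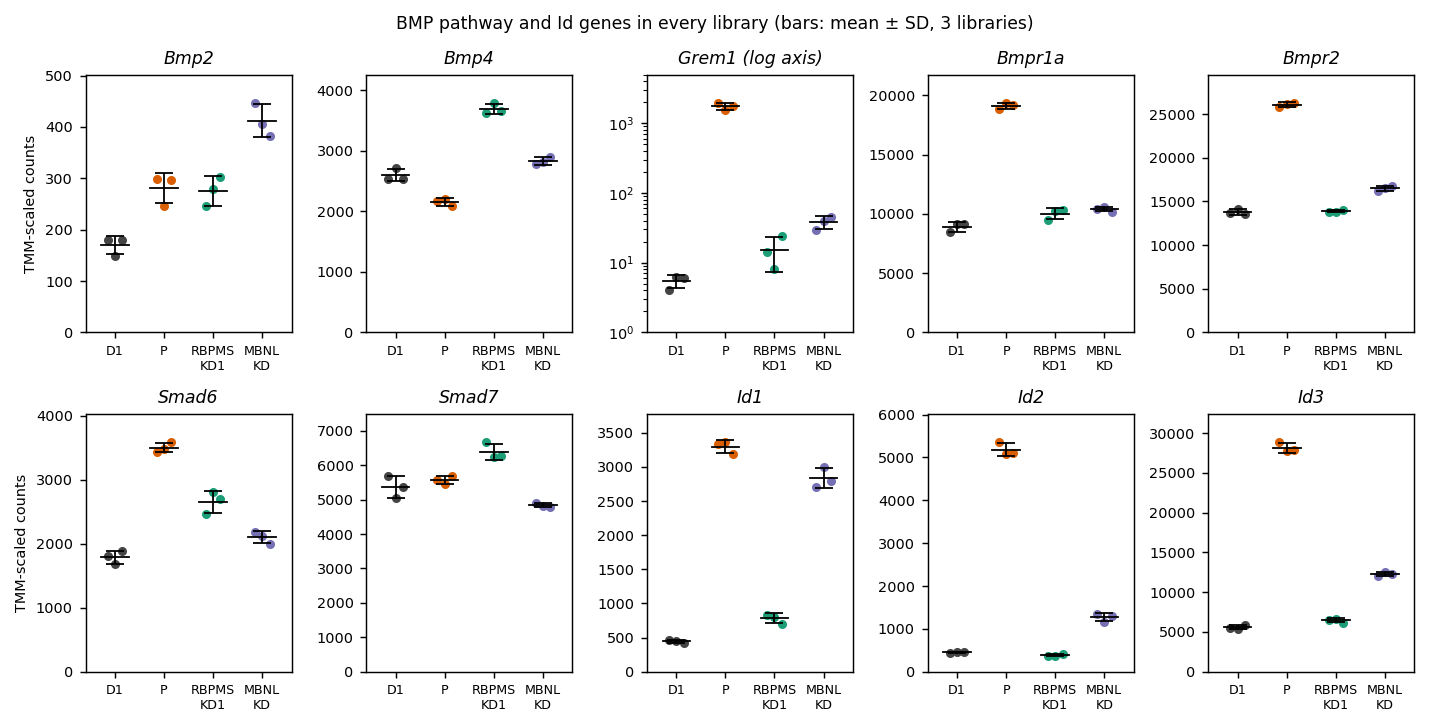
Scaled counts of each of the 10 members by library (points) and group, with group means and SDs (n = 3); Grem1 is on a log axis and the others on linear axes from 0. The P libraries of Id1, Id2 and Id3 are the highest of their panels, and the MBNL KD libraries come next, at 2835, 1269 and 12257 on average.

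Id4, the remaining gene of the family and a companion from the list of BMP targets, did not follow the other Id genes. Its scaled counts were 11924, 11570.0 and 11582 in D1, 2338, 2215 and 2471 in P, 8208, 8315 and 8506 in RBPMS KD1 and 11556, 11162 and 10757 in MBNL KD. P was the lowest, RBPMS KD1 lay between P and D1, and MBNL KD lay just below D1 with no overlap. Id4 was 5.00-fold lower in P (log2 fold change -2.32, SE 0.0336, adjusted p = 4.9e-34) and 1.40-fold lower in RBPMS KD1 (log2 fold change -0.49, SE 0.0273, adjusted p = 5e-15). In MBNL KD the log2 fold change was -0.061 (adjusted p = 0.035), and under quantile normalization it was 0.017. ID4 can act against the other ID proteins.

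The stretches just before the annotated starts of the 3 Id genes and Grem1, the members with the largest differences in P, are shown with 3 motifs in capitals: GGCGCC, known as a GC-rich element bound by SMAD1 and SMAD5, the CCAAT box (CCAAT, or ATTGG on the other strand) and the TATA box TATAAA, the last 2 chosen after the values had been seen. The sequences are from RefSeq in the build GRCr8, 200 bases each, read 5′ to 3′ on the strand of the gene. Each stretch ends just before the start in the RefSeq gene table. For Id1 and Id3 the RefSeq promoter table, which gives the shares of all promoters and the windows of 300 bases, places the start 39 and 38 bases further downstream.

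Id1, chr3:161671325-161671524, plus strand: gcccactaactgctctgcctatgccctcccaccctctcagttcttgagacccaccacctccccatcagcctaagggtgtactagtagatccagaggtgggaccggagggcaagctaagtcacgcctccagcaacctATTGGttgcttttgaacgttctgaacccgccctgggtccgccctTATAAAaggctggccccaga

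Id2, chr6:47470996-47471195, minus strand: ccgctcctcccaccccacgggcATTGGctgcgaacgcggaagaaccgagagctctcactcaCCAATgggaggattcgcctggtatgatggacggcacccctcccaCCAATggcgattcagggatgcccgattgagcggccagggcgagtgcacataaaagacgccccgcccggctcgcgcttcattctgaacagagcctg

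Id3, chr5:153656053-153656252, plus strand: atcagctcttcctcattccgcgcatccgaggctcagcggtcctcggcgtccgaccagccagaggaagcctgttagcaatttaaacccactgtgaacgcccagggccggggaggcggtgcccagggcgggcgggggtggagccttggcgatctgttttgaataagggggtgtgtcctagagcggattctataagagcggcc

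Grem1, chr3:120978320-120978519, minus strand: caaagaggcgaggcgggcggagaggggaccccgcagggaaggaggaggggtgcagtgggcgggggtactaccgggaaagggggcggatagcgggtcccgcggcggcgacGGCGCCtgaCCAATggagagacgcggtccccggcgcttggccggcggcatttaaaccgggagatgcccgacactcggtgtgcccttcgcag

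Id1 held 1 CCAAT box and 1 TATAAA in this window, Id2 held 3 CCAAT boxes, and Id3 held no match. GGCGCC was in the Grem1 stretch, beside a CCAAT box, and in none of the 3 Id stretches. Over all 33469 RefSeq promoters, 7.61% held GGCGCC, 29.2% CCAAT and 10.4% TATAAA in a 200-base window before the start. In longer windows of 300 bases, from 250 before the start to 50 after it, GGCGCC with GTCT or CAGAC within 60 bases was in 5.07% of promoters. Of the 8 members with a promoter entry, Grem1 had 1 such match and Smad7 had 2, and Bmp4, Bmpr1a, Bmpr2, Id1, Id2 and Id3 had none. The E-box CANNTG, bound by bHLH factors, was found 1 time each in the windows of Id1 and Id2 and not in that of Id3, against 72.1% of all promoters. These are matches of letters on both strands, and no binding was measured. Sequence outside these windows was not searched, so the lack of a match here does not mean that a gene lacks the element. Bmp2 and Smad6 had no promoter entry.

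The knockdowns were also compared with each other, a comparison that does not use the D1 libraries. Id1, Id2 and Grem1 were lower in RBPMS KD1 than in MBNL KD past both thresholds, 3 of 10 members, where 11.9% of 16111 genes passed, 6.03% higher and 5.88% lower. Id1 was 3.64-fold lower (log2 fold change -1.86, SE 0.0589, adjusted p = 3.7e-22) and Id2 was 3.32-fold lower (log2 fold change -1.73, SE 0.0736, adjusted p = 5.6e-19). Id3 was 1.90-fold lower (log2 fold change -0.93, SE 0.0294, adjusted p = 4e-22), just short of the fold threshold. Grem1 was 2.47-fold lower (log2 fold change -1.30, SE 0.378, adjusted p = 0.0031), and without RBPMS KD1 replicate 2, its lowest library, the log2 fold change of -0.98 no longer passed. By adjusted p alone Bmp2 (log2 fold change -0.58) and Bmpr2 (-0.25) were also lower in RBPMS KD1, while Bmp4 (0.38), Smad6 (0.34) and Smad7 (0.40) were higher. For Bmpr1a the log2 fold change was -0.055 (95% interval -0.11 to 0.0014, adjusted p = 0.091). Over all genes tested 34.5% were higher and 35.1% lower by adjusted p. The knockdown groups overlapped in Bmpr1a and in no other member, against 71.8% of all genes without overlap.

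Markers of other cell types were measured beside these results. The summed level of the endothelial markers Pecam1, Cdh5, Kdr, Tek, Vwf and Erg was 157 to 162 in D1, 1306 to 1364 in P, 247 to 261 in RBPMS KD1 and 257 to 305 in MBNL KD. It thus moved in the same direction as Id1 and Id3, and also as Bmp2, Bmpr1a and Smad6. All 4 endothelial markers tested in P (Cdh5, Tek, Vwf and Erg) were higher there past both thresholds, Erg rising from 90.5 ± 5.58 to 801 ± 32.6. In RBPMS KD1 Tek and Vwf passed both, of 3 tested. In MBNL KD, where the 3 Id genes passed, 0 of 3 endothelial markers did, and 1 was higher by adjusted p alone. Over all genes tested 27.6% in P, 4.68% in RBPMS KD1 and 10.2% in MBNL KD passed both. Cdh5 and Kdr, which define endothelial cells, had no count in any D1, RBPMS KD1 or MBNL KD library, Cdh5 had 126, 138 and 122 counts in P, where Kdr had 0 to 4, and Pecam1 had 2 to 14 counts in each of the 12 libraries. For macrophage markers the sums were 5185 to 5550.4, 4329.6 to 4526, 7499 to 7727 and 4653 to 4942 in the same order of groups, nearly all of it Cd14, with Ptprc at 0 to 4 counts. Csf1r, another macrophage marker, was at 23.6 ± 3.56 in D1 and 58.0 ± 5.48 in MBNL KD, higher past both thresholds there (log2 fold change 1.30, SE 0.291, adjusted p = 0.00024). For epithelial markers they were 3159 to 3315, 7125 to 7385, 3453 to 3680.1 and 4757 to 4829, nearly all of it Krt8. The part of such cells in the differences of the members was not tested.

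The rest of the pathway was followed in 63 listed genes, of which 49 were tested in P and 46 in each of the other comparisons. The 63 include 6 bHLH genes for partners of ID proteins, 5 of them tested, which are also described apart at the end. In P, 12 passed both thresholds higher and 12 lower. In MBNL KD 6 were higher and 2 lower. In RBPMS KD1, 0 passed by edgeR, DESeq2 or limma, with 33 of 46 at an unadjusted p under 0.05 by edgeR, against the same 62.5% of all genes. Leaving out 1 library brought 1 call of a low gene there, Bmp8b without D1 replicate 1 (log2 fold change -1.08) or RBPMS KD1 replicate 3 (-1.20), and Kcp without RBPMS KD1 replicate 1 (-2.07). The shares of all genes given above for the members apply here too. By adjusted p alone, 19 rose and 26 fell in P, 16 rose and 12 fell in RBPMS KD1, and 20 rose and 16 fell in MBNL KD. The calls were in 39 gene and comparison pairs over the 4 comparisons, and the direction of 0 of them changed under DESeq2's size factors or quantile normalization. Eng and Twsg1 in P fell short of the fold threshold under quantile normalization (-0.98 and -0.93), and by limma on the normalised values 18 listed genes passed in place of 24 in P, and 6 in place of 8 in MBNL KD.

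Other ligands moved both ways in P. Gdf10, a relative of BMP3, had no more than 2 counts in any D1 library and was at 2058 ± 125 in P. That is at least 665-fold higher when set against 3 counts in a library, or up to 2 times less if mates were counted singly. Bmp6, a ligand known for control of iron through hepcidin, was at 948 ± 42.4 in D1, 6855 ± 249 in P, 974 ± 28.2 in RBPMS KD1 and 2567 ± 125 in MBNL KD. It rose past both thresholds in P (log2 fold change 2.85) and MBNL KD (1.44), as Id1, Id2 and Id3 did. Gdf6, a ligand of skeletal and eye development, was at 13350.5 ± 385, 1251 ± 30.0, 6991 ± 124 and 21192 ± 849 in the same order of groups, and it fell in P (-3.42) and was lower in RBPMS KD1 than in MBNL KD (-1.60). Bmp3, a ligand that works against other BMPs, fell in P (-1.39). Bmp7 had no count in D1 and a mean of 25.2 in P, at least 8.14-fold higher by the same limit, which carries the same reservation. Bmp8a, named after its values were seen, rose in MBNL KD (1.33, adjusted p = 0.012) at only 18 to 26 counts per library, and Bmp8b, likewise, fell in P (-1.26) to 9 to 17 counts per library.

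Among receptors and co-receptors, 4 of 8 tested fell past both thresholds in P, where 11.2% of all genes tested did. These were Hjv, the hemojuvelin co-receptor (-4.91), the type I receptor Bmpr1b (-1.61), the type II receptor Acvr2b (-1.49) and endoglin, Eng (-1.06). Rgma, a co-receptor of the same family as Hjv, rose in P (1.89) and fell in MBNL KD (-1.15). Bmpr1b rose in MBNL KD (1.85), opposite to its fall in P. Of the signal-carrying SMADs, Smad1 rose in P from 2337 ± 15.4 to 4993 ± 132 (1.09), and Smad4, Smad5 and Smad9 did not reach the fold threshold. Of 9 intracellular inhibitors, the pseudoreceptor Bambi fell in P (-1.47) and Skil, a corepressor bound by SMADs, rose (1.03). By edgeR none passed both thresholds in a knockdown against D1, where 4.68% of all genes did in RBPMS KD1 and 10.2% in MBNL KD.

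Of the secreted antagonists and modulators, noggin, Nog, had no count in D1 and a mean of 49.5 in P. That is at least 16.0-fold higher when set against 3 counts in a library, or up to 2 times less if mates were counted singly. The follistatin relative Fstl3 (2.52) and Nbl1, an antagonist of the gremlin family (1.47), rose in P, and Crim1 (-1.99) and Twsg1 (-1.01), which bind BMPs, fell. Kcp also rose in P, from 8.86 to 40.3. Follistatin, Fst, which binds activins and some BMPs, came nearest to the fold threshold in RBPMS KD1, where its mean of 3204 ± 76.7 was 1.94-fold that in D1 (1649.8 ± 30.6; log2 fold change 0.96, adjusted p = 1.4e-17), and it also rose in MBNL KD (0.91) and P (0.57). Chrdl2, a chordin-like antagonist, rose in MBNL KD (2.70) and was lower in RBPMS KD1 than there (-3.08). Of the other BMP target genes for transcription factors, Runx2, the regulator of bone formation, rose in P (1.64) and MBNL KD (2.03), and so did Atoh8 (2.38 and 1.35). Id4 fell in P, and Hey1 and Msx1 did not pass both thresholds in any of the 3 comparisons with D1, although the log2 fold change of Hey1 in P went from -0.97 to -1.50 under quantile normalization.

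**Figure D3:**
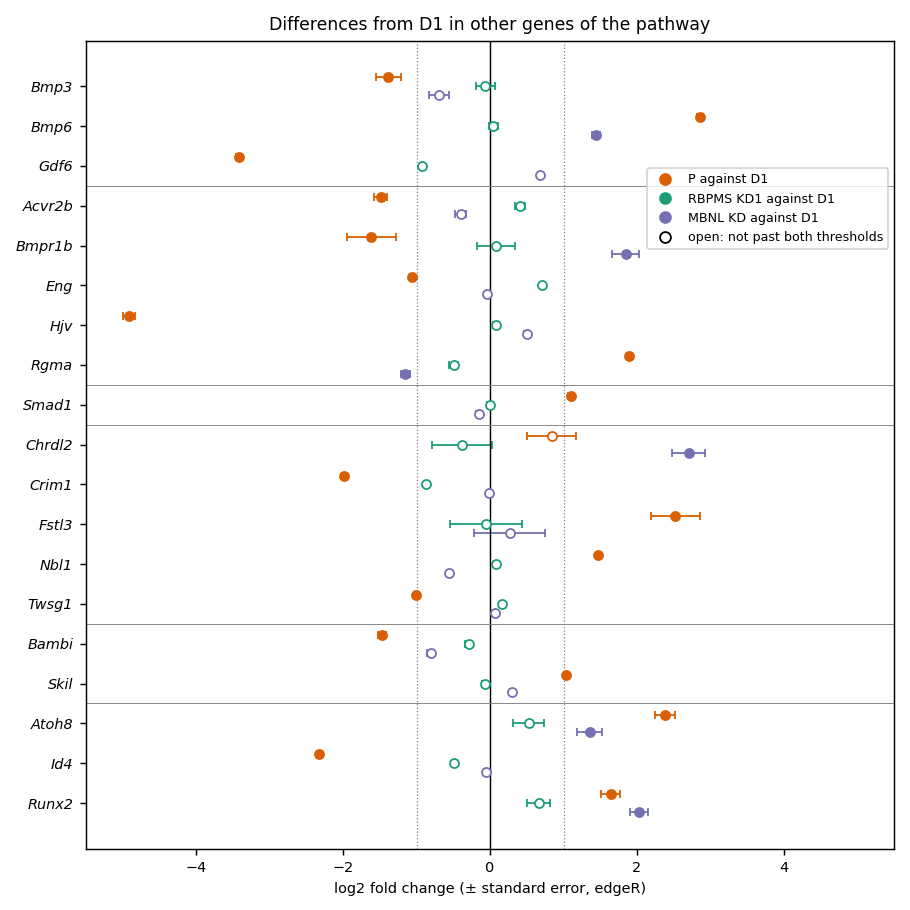
Differences from D1 of the companion genes past both thresholds in at least 1 comparison and at 50 or more scaled counts in the higher group, where named in the text, as log2 fold change (x axis) with bars of 1 standard error; Gdf10, with at most 2 counts in a D1 library, is left out. Filled points passed both thresholds, horizontal lines part the roles, and the points of RBPMS KD1 all lie between the dotted lines at -1 and 1.

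The genes with the most similar patterns were sought among 13700 genes with at least 50 scaled counts on average, by the root mean square difference of log2 CPM (scaled counts relative to the library total), centred for each gene, over the 12 libraries. Near to Id2 were Vash2, a vasohibin gene, with a difference of 0.24 and mean scaled counts of 548 in D1, 4766 in P, 357 in RBPMS KD1 and 987 in MBNL KD, and the transporter gene Slco5a1 (0.26). For Id3 it was Igf2bp2, an mRNA-binding protein gene, with a difference of 0.088 and means of 1324 in D1, 6039 in P, 1521 in RBPMS KD1 and 2881 in MBNL KD. LOC120095612 (0.11) and LOC102554553 (0.12) came next. For Id1 it was Loxl4, a lysyl oxidase of the extracellular matrix, with a difference of 0.23 and means of 1557 in D1, 9053 in P, 2552 in RBPMS KD1 and 6679 in MBNL KD, then LOC108349679 (0.25) and the collagen gene Col4a3 (0.29). The nearest to Grem1 were Nkd1, an inhibitor of WNT signalling (0.57), Slc22a4 (0.58) and Afap1l1 (0.58). The measure is not scaled to a gene's range, and the group means of Grem1 spanned 8.36 log2 units, against 2.90 for Id1. Noise at the low counts of Grem1 also enters it, so these larger values do not show that Grem1 stood apart. Nkd1 had means of 29.7 in D1, 5517 in P, 44.3 in RBPMS KD1 and 68.2 in MBNL KD. The libraries, and so the 4 group means, are shared by all genes compared, and no test was made of this likeness.

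**Figure D4:**
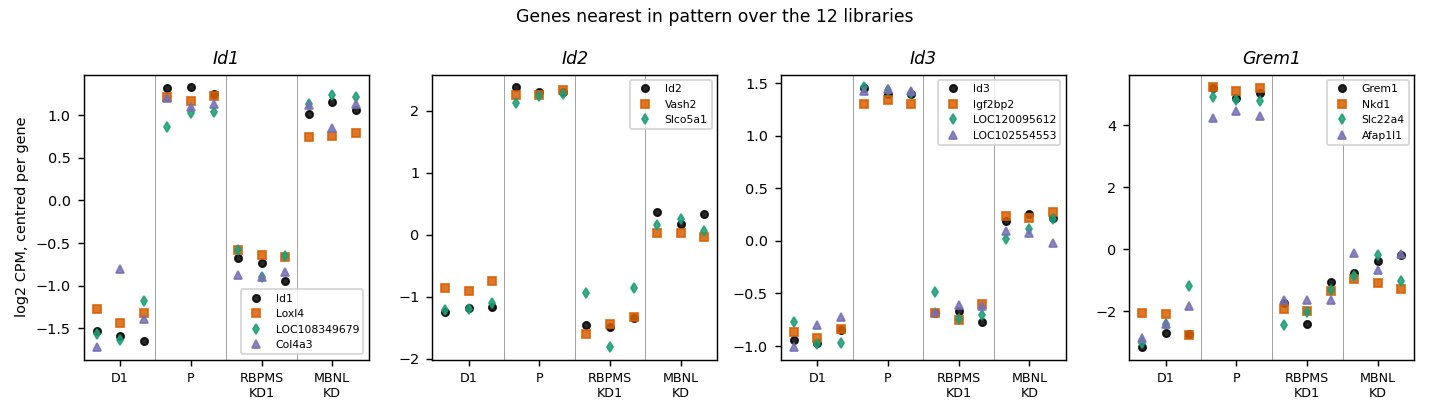
Log2 CPM, centred per gene, in the 12 libraries ordered by group, for Id1, Id2, Id3 and Grem1 and for genes near to each (3, and 2 for Id2). The y axis is in log2 units from the gene's own mean. Igf2bp2 runs with Id3 in every group, while the neighbours of Grem1, whose range is wider, stand further from it in log2 units.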

How the data were processed

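Poly(A) RNA from 12 PAC1 samples was measured by RNA-Seq in 4 groups of 3, assigned by the sample labels. The counts are those deposited by the authors, who reduced each library to 55 M reads with seqtk, aligned them to mRatBN7.2 with STAR 2.7.11b and counted reads per RefSeq gene symbol with featureCounts. The authors' normalised table holds signal values for 19812 genes after noise correction with noisyR and quantile normalization, with a minimum of 35. The strand setting and the counting of mates are not given in the sources used here, so that reads of a gene and an antisense partner cannot be told apart.

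Each comparison was fitted on its 6 libraries in R 4.3.3 with edgeR 4.0.16: filterByExpr, TMM, the quasi-likelihood F test and Benjamini-Hochberg adjustment over all genes tested. Calls used the study's thresholds, 0.05 for the adjusted p and 1 for the size of the log2 fold change. Standard errors were derived from the fold change and the F statistic. The study's methods describe biological replicates of each condition, and the labels do not say how the libraries of a group were cultured. With 3 against 3, an exact permutation test cannot go below 0.1. Alternatives were DESeq2 1.42.0 on the counts, its size factors, quantile normalization, limma 3.58.1 on log2 of the normalised values, no filter, halved counts, 1 fit of 12 libraries, the replicate block and leaving out each library.

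Total counts were similar across libraries. Lower bounds of a fold use a limit of 3 counts in a library, which covers counting error only. The totals, 80842635 to 90771289, exceeded the 55 M reads kept per library, so a count was not always 1 read pair. Counts up to 20 were 2.06 to 2.36 times more often even than odd. With mates counted singly these bounds would be smaller by up to 2 times. The members and the lists of other genes were chosen with earlier results of these data known. Named were all members, the siRNA targets, companions past both thresholds in a comparison where the higher group had 50 scaled counts or more, and the 3 genes nearest in pattern to Id1, Id2, Id3 and the member of widest range. Bmp7, Bmp8a, Bmp8b, Kcp and Nog, under 50 scaled counts, and Fst, Hey1, Msx1 and the marker Csf1r were named outside that rule, after their values were seen. Of the genes that the rule selects, 2 are not reported here. Same-numbered libraries did not deviate together (correlations over genes from -0.042 to 0.030), so the numbers were not taken as pairs. Amino acid sequences were not used here.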

Additional observations from a re-analysis of the deposited data

How the results depend on the processing

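Of 546 member fold changes recomputed under the alternatives, 534 kept their direction and their side of an adjusted p of 0.05, 6 lost it, 5 gained it and 1 turned: Bmpr2 in RBPMS KD1 without D1 replicate 3, at -0.0014 on the log2 scale, the lowest of its values with 1 library left out, of which the highest was 0.029. The count of members past both thresholds in RBPMS KD1 was 0, and became 1, Grem1, with no filter, where its adjusted p of 0.04992 lay at the threshold, and in 1 fit of 12 libraries. Leaving out 1 library gave 0 to 1 for the members (Grem1, without D1 replicate 2 or 3 or RBPMS KD1 replicate 2) and 0 to 1 for the other pathway genes. With no filter and the replicate block together, an alternative chosen after seeing the data, Grem1 had an adjusted p of 0.12. The replicate block alone left the counts of members at 5, 0, 5 and 3 in P, RBPMS KD1 and MBNL KD against D1 and between the knockdowns, and changed no other call of a member.

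Bmp2 in P was 0.24 by limma on the normalised values (adjusted p = 0.088). Smad7 in MBNL KD was -0.066 under quantile normalization (adjusted p = 0.11) and -0.064 by limma (0.23). Bmpr2 in RBPMS KD1 passed under quantile normalization (0.073, adjusted p = 0.017) and by limma (0.066, 0.037). Smad7 in P passed under quantile normalization (0.090, adjusted p = 0.03), as did Bmpr1a between the knockdowns (-0.077, 0.026). By limma, Grem1 was 5.43 in P, 0.82 in MBNL KD and -0.51 between the knockdowns, on values of which none is under 35. Over all genes, limma called 209 in place of 745 in RBPMS KD1, 784 in place of 1643 in MBNL KD and 1050 in place of 1920 between the knockdowns. The share of calls that were higher moved from 65.4% to 53.8% (quantile) or 50.2% (limma) in RBPMS KD1 and from 59.6% to 49.5% (limma) in MBNL KD. The causes were not tested. Grem1 in D1, at 4 to 6 counts, is limited by depth, as are the companions at 0 to 2 counts there.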

Other observations

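The bHLH genes whose products are partners of ID proteins were followed as a list of 6, of which 5 were tested. They are also among the 63 genes counted above as the rest of the pathway. By edgeR, DESeq2 or limma, 0 of 5 passed both thresholds in any of the 4 comparisons, and by edgeR 5 of 5 in P and 4 of 5 in each other comparison had an unadjusted p under 0.05. Over all genes tested, 78.9% in P, 62.5% in RBPMS KD1, 69.7% in MBNL KD and 71.2% between the knockdowns had such a p, and 27.6%, 4.68%, 10.2% and 11.9% passed both thresholds. Tcf3, which encodes the E proteins E12 and E47, had mean scaled counts of 8459 ± 180.2 in D1 (n = 3), 6094 ± 186 in P, 4836 ± 86.8 in RBPMS KD1 and 7464 ± 185 in MBNL KD. It fell in all 3 comparisons with D1 by adjusted p, with log2 fold changes of -0.47 in P, -0.81 in RBPMS KD1 and -0.17 in MBNL KD. Tcf12, another E protein gene, rose in all 3 (0.24, 0.13 and 0.36). Twist1 rose in P (0.50), fell in RBPMS KD1 (-0.17) and rose in MBNL KD (0.11). Twist2 rose in P (0.54) and in RBPMS KD1 (0.16) and fell in MBNL KD (-0.39). Tcf4 fell in P (-0.29), and in the knockdowns its log2 fold changes were 0.064 (adjusted p = 0.14) and 0.069 (adjusted p = 0.093). Tcf21 was under the filter in every comparison.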
